A study of Drosophila melanogaster with 36 samples.

Results

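The piRNA clusters described here are 4 stretches of the Drosophila melanogaster genome: 2 neighbouring spans in the cytological interval 38C, called 38C2 and 38C1, the cluster 80F and a cluster on chromosome 4. They were chosen by position, as 226 bins of 1 kb out of the 139714 bins of the deposited table, on the dm3 assembly. All of them carry its mark for the piRNA clusters of Brennecke et al., so their small RNA in control is a description and not a test. The span 38C2 lies on chromosome 2L from 20104001 to 20117000 (13 bins) and 38C1 on the same arm from 20148001 to 20228000 (80 bins). The cluster 80F lies on chromosome 3L from 23273001 to 23315000 (42 bins), and the last one lies on chromosome 4 from 1258001 to 1349000 (91 bins). An exon was annotated in 1 bin of 38C2, none of 38C1, 7 of 80F and 7 of the chromosome 4 cluster.

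The material was whole ovaries of adult females 4 to 6 days old, kept at 25 °C, in which piwi, cutoff, deadlock or rhino had been knocked down in the germline; a control knockdown served as reference. The knockdown was aimed at the germline, and the somatic follicle cells of the ovary were present in every sample. The labels name neither the driver nor the hairpin lines. Gene annotation of dm3 was not used here, so RNA levels of the targeted genes were not analysed. Rhino ChIP was done in all 5 groups, H3K9me3 ChIP in the control and after knockdown of rhino or piwi, and Deadlock and Cutoff ChIP in control and in the knockdown of the protein itself. RNA polymerase II (Pol II) ChIP and GRO-seq, which labels RNA still being made by engaged polymerase, were done in control and rhino knockdown. RNA-seq of RNA depleted of ribosomal RNA and sequencing of small RNA of 18 to 29 nt were done in control, rhino, deadlock and cutoff knockdown. Small RNA bound to Piwi was sequenced from piwi germline knockdown ovaries, in which the labels call it somatic.

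Dual-strand piRNA clusters are stretches of transposon fragments from which germline cells of the ovary make Piwi-interacting RNAs (piRNAs), small RNAs that guide the silencing of transposons. Their precursors come from both genomic strands. Rhino is a variant of heterochromatin protein 1 that binds the silencing mark H3K9me3, and it recruits Deadlock and Cutoff, with which it allows transcription of the cluster without ordinary promoters. Piwi, loaded with piRNAs, directs H3K9me3 deposition at matching nascent transcripts.

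Each value below is a normalised signal: the reads of a bin, scaled to a library total and divided by the authors' mappability index of the bin, plus a small offset. The index runs from 0 to 1. A bin with an index of 0 holds the offset and no measurement, and 59 of the 226 bins had one. Bins were kept where the input average reached 25% of the genome median of 8.71. That left 147 bins, of which 13 of 13 were in 38C2, 39 of 80 in 38C1, 41 of 42 in 80F and 54 of 91 in the chromosome 4 cluster. The median index of the kept bins was 0.741 in 38C2, 0.432 in 38C1, 0.773 in 80F and 0.339 in the chromosome 4 cluster. Edge bins are the first 3 and last 3 of a stretch and inner bins the others. The last 3 bins of the chromosome 4 cluster had an index of 0, so only its proximal edge was measured.

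Apart from control RNA-seq, each group was either a single library or a mean that the authors formed from 2 libraries before deposit, so it carries no spread between samples. Rhino ChIP in control and piwi knockdown, all H3K9me3 ChIP and input are such averages. Where single libraries were compared, read ratios are of summed reads scaled to the library totals, and carry exact Clopper-Pearson 95% intervals, which cover counting error only. Scaling totals ranged from 3872000 reads (Rhino ChIP in deadlock knockdown) to 169660000 (RNA-seq in cutoff knockdown). Changes are differences of log2(value + 1), and a bin was called at 2-fold unless stated otherwise. As the ovaries were measured in bulk, fewer cells of a type and less RNA per cell cannot be told apart.

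In control ovaries, 104 of the 147 kept bins held Rhino at 4-fold over input or more and are called bound, against 3.35% of all 123742 kept bins of the genome. These were 12 of 13 bins in 38C2, 29 of 39 in 38C1, 28 of 41 in 80F and 35 of 54 in the chromosome 4 cluster. The median Rhino signal was 67.9 in 38C2, 37.3 in 38C1, 98.3 in 80F and 199 in the chromosome 4 cluster, beside input medians of 8.37, 5.59, 9.40 and 15.5. For scale, the dual-strand cluster 42AB had a median Rhino signal of 440.4 over an input of 8.43. Taken bin by bin, the log2 difference of Rhino from input had its highest median in 80F, 3.52, followed by 3.07 in the chromosome 4 cluster, 2.63 in 38C2 and 2.53 in 38C1, and by comparison 5.57 in 42AB. These ranges overlapped: single bins ran from 1.70 to 3.61 in 38C2, from 0.10 to 4.24 in 38C1, from 0.70 to 5.51 in 80F and from 0.43 to 5.27 in the chromosome 4 cluster.

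For H3K9me3, 138 of 147 bins reached 2-fold over input, against 14.4% of the genome. All 41 bins of 80F and all 13 of 38C2 were among them, as were 53 of 54 in the chromosome 4 cluster and 31 of 39 in 38C1. The median log2 over input was 2.84 in 80F, 2.28 in the chromosome 4 cluster, 1.86 in 38C2 and 1.54 in 38C1. Deadlock ChIP was at least 2-fold higher in control than in deadlock knockdown in 52 bins (1.27% of the genome), and Cutoff ChIP in 36 bins (3.14%). The Deadlock bins were 4 in 38C2, 14 in 38C1, 18 in 80F and 16 in the chromosome 4 cluster. Summed over kept bins, the control held 1.84 times the Deadlock reads of the knockdown in 38C2 (1.70 to 1.99), 2.14 times in 38C1 (2.01 to 2.29), 3.34 times in 80F (3.195 to 3.49) and 2.00 times in the chromosome 4 cluster (1.94 to 2.06). For Cutoff the ratios were 1.63, 1.45, 2.01 and 1.18. By both proteins, 80F had the highest ratio of the 4 stretches. Within the chromosome 4 cluster the 20 bins nearest its start had ratios of 0.940 for Deadlock (0.861 to 1.03) and 0.725 for Cutoff (0.681 to 0.773), and the 34 kept bins beyond them 2.21 (2.14 to 2.28) and 1.29 (1.26 to 1.32).

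**Figure D1:**
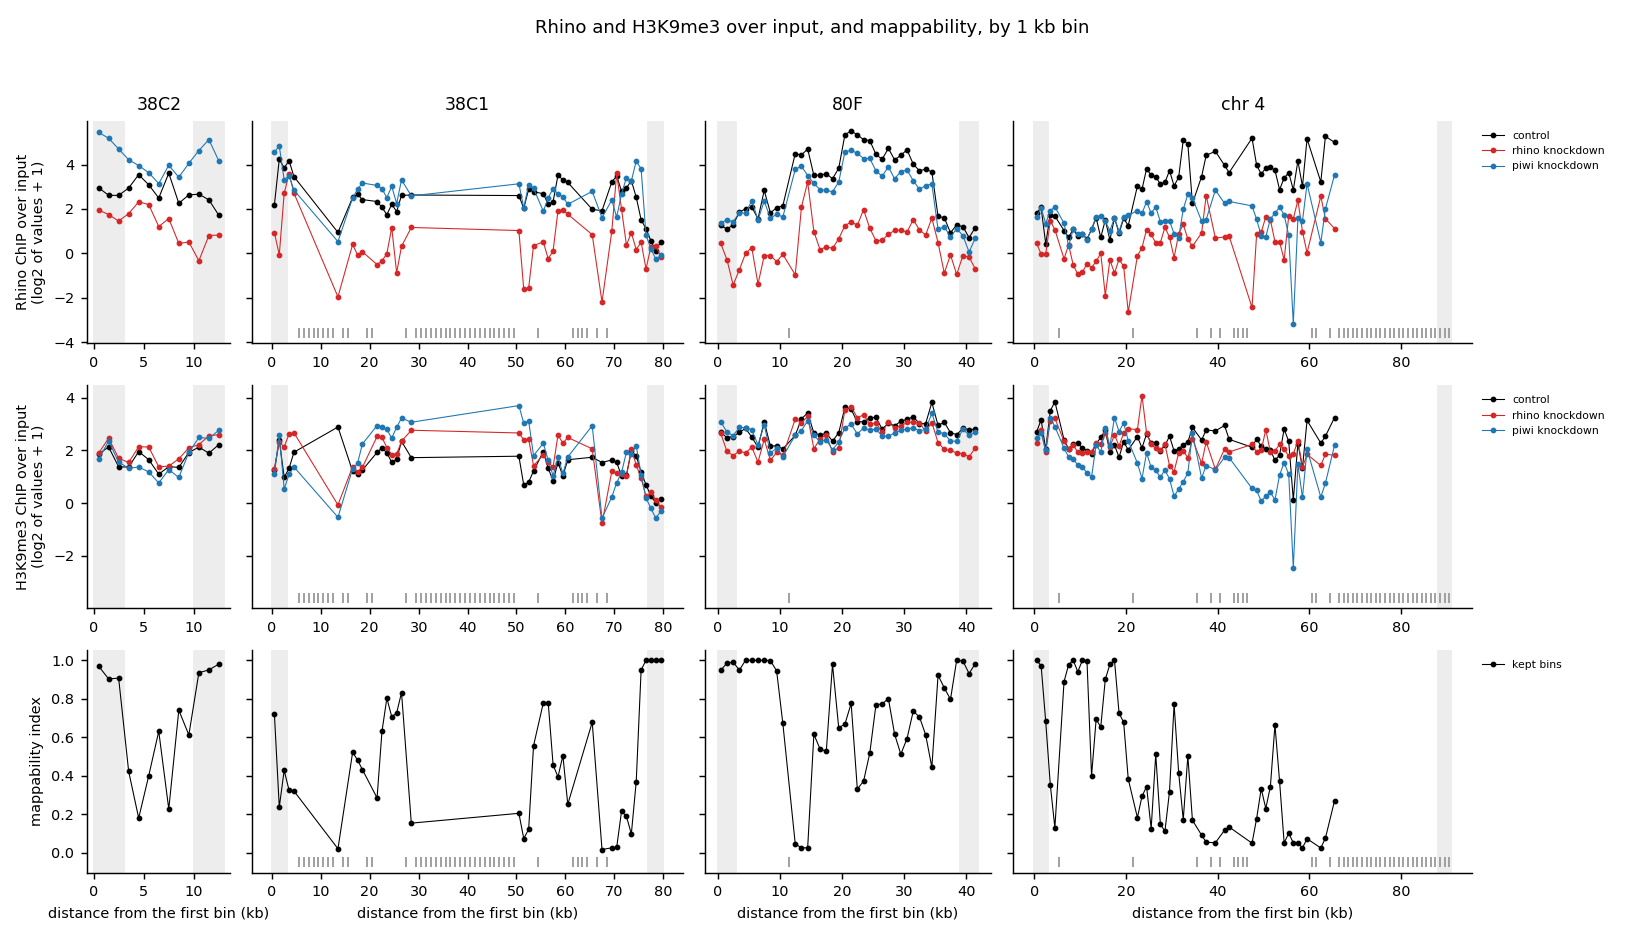
Rhino ChIP (top) and H3K9me3 ChIP (middle) over input as the difference of log2(value + 1), and the mappability index (bottom), against the distance from the first bin in kb, for control (black), rhino knockdown (red) and piwi knockdown (blue). Grey bands are edge bins and grey ticks bins that were not kept, which the lines bridge. Rhino over input in control has its highest bins inside 80F, up to 5.51, and in piwi knockdown it is above control across 38C2 and below it in the distal bins of the chromosome 4 cluster.

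Each member of the complex was knocked down, and the median Rhino signal was lower each time in all 4 stretches. At least 2-fold lower were 128 of 147 bins in rhino knockdown (15.9% of the genome), 126 in deadlock knockdown (18.5%) and 107 in cutoff knockdown (4.41%). In the somatic cluster flamenco the shares were 53.9%, 49.4% and 18.0% of 89 kept bins. In 80F the median signal was 98.3 in control and 14.04, 12.3 and 13.2 after rhino, deadlock and cutoff knockdown. In the chromosome 4 cluster it was 199 in control and 28.6, 14.9 and 27.9, and in 38C1 it was 37.3 in control and 8.24, 6.58 and 11.1. In 38C2 the order of the knockdowns was another one. Its median was 67.9 in control, 24.1 in rhino, 33.6 in deadlock and 12.9 in cutoff knockdown, and 13 of 13 bins were at least 2-fold lower in cutoff knockdown but 6 of 13 in deadlock knockdown. With 1 library per knockdown, differences between knockdowns were not tested.

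In piwi knockdown the 4 stretches went different ways. Rhino was at least 2-fold higher in 12 bins (2.29% of the genome) and at least 2-fold lower in 34 (1.85%). Of the higher bins, 9 were in 38C2 and 3 in 38C1. Of the lower bins, 32 were in the chromosome 4 cluster, 1 in 38C1 and 1 in 80F. The share of lower bins was 23.1% of the kept bins, 4.94% of those with a mappability index of at least 0.5 and 7.44% of those with an input under 2 times the genome median. In the chromosome 4 cluster, that index kept 16 of the 20 bins nearest its start and 4 of the 34 beyond them. The median Rhino signal went from 67.9 in control to 132 in 38C2, from 37.3 to 40.02 in 38C1, from 98.3 to 64.9 in 80F and from 199 to 57.7 in the chromosome 4 cluster. For comparison, the median log2 difference was 1.42 in 38C2, 0.02 in 38C1, -0.59 in 80F and -1.47 in the chromosome 4 cluster, and -1.24 in 42AB.

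H3K9me3 was at least 2-fold lower in piwi knockdown in 30 bins (1.05% of the genome) and higher in 8 (1%). The lower bins were 27 in the chromosome 4 cluster and 3 in 38C1. Their share was 20.4% of the kept bins and 4.94% at an index of at least 0.5, the set with few of the farther chromosome 4 bins. The median H3K9me3 signal of the chromosome 4 cluster was 107 in control, 56.5 in piwi knockdown and 64.0 in rhino knockdown, while the median log2 differences by bin were -0.97 and -0.13. In 80F it was 73.8, 61.9 and 53.9, and in 38C2 it was 28.4, 27.0 and 35.4. In rhino knockdown, 8 bins were at least 2-fold lower (1.51% of the genome) and 9 higher (3.75%).

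The median small RNA signal was high in all 4 stretches in control, and small RNA was nearly absent from 3 of them in each knockdown. In 38C2 the median signal was 1145 in control and 5.56, 2.67 and 3.06 after rhino, deadlock and cutoff knockdown. In 38C1 it was 413 in control and 4.38, 1.54 and 3.22, and in 80F it was 548 in control and 4.37, 2.32 and 5.89. The chromosome 4 cluster had 418 in control and 23.4, 26.0 and 24.6, so more remained there. Its control small RNA was uneven, with 1361 reads in the 20 kept bins nearest its start and 56768 in the 34 beyond them.

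In each of the 3 knockdowns, 137 of 147 bins were at least 2-fold lower in small RNA, against 11.6%, 12% and 11.7% of the genome. Most bins of the genome hold almost no small RNA. Among bins whose larger value was at least 5, the shares were 49.1%, 47.5% and 48.6%. Summed reads of 38C2 were 180 times lower in rhino knockdown (161 to 203), 422 times in deadlock knockdown (352 to 510) and 371 times in cutoff knockdown (322 to 431). What the small RNA totals count is not given in the sources used here; after scaling to equal reads at flamenco, a cluster expressed in somatic follicle cells, the share of bins at least 2-fold lower was 93.2% in each knockdown, as with the authors' totals. For 38C1 the factors were 77.2, 181 and 107, and for 80F they were 122, 177 and 79.8. For the chromosome 4 cluster they were 7.84 (7.66 to 8.02), 3.61 (3.55 to 3.67) and 6.27 (6.16 to 6.39). Piwi-bound small RNA of somatic origin had medians of 6.08 in 38C2, 0.864 in 38C1, 1.21 in 80F and 0.647 in the chromosome 4 cluster, against 3.66 in 42AB and 518 in flamenco.

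**Figure D2:**
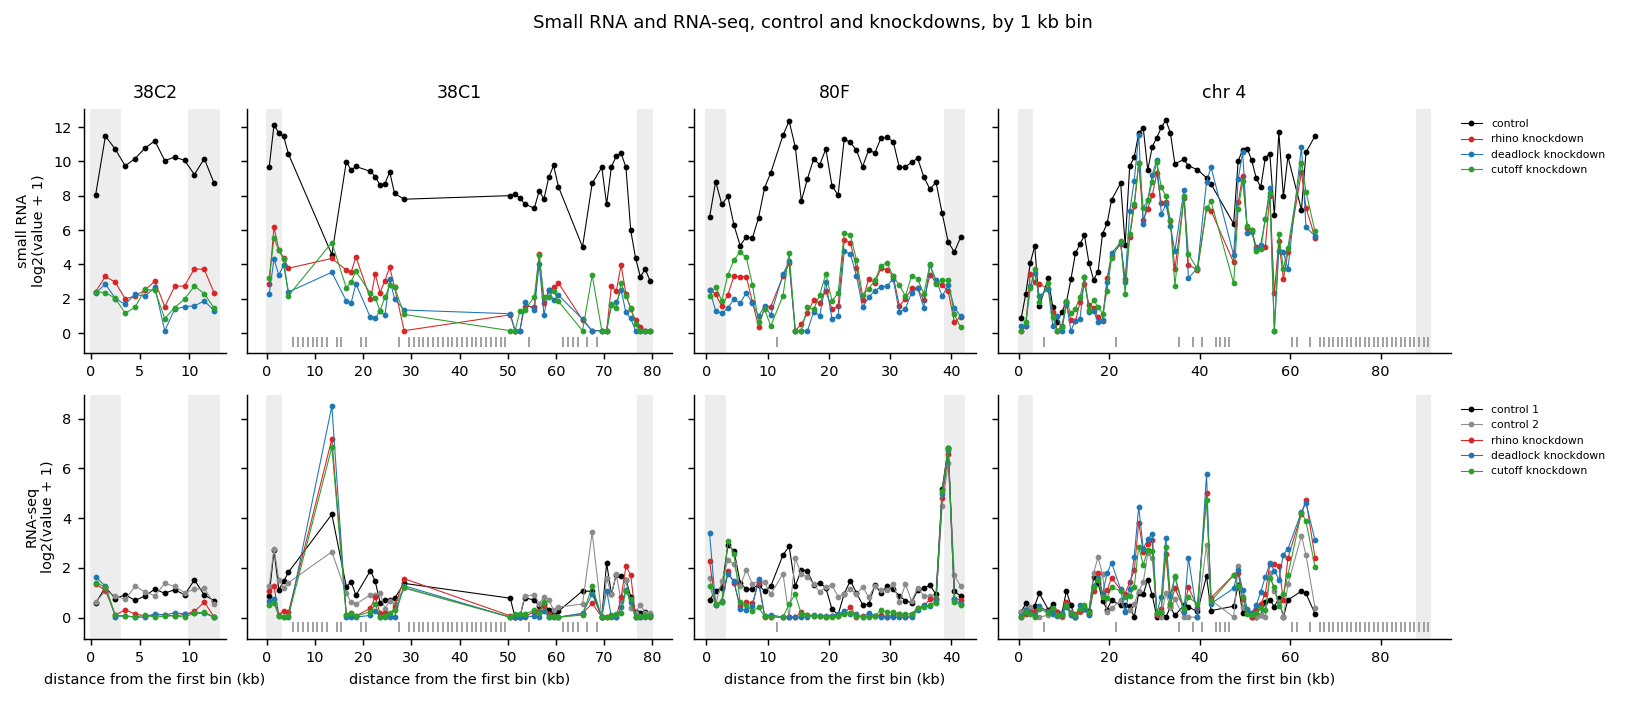
Small RNA (top) and RNA-seq (bottom) as log2(value + 1) against the distance from the first bin in kb, for control (black, the second RNA-seq control in grey), rhino (red), deadlock (blue) and cutoff knockdown (green). Grey bands are edge bins and grey ticks bins that were not kept, which the lines bridge. The knockdown lines for small RNA lie far below control in 38C2, 38C1 and 80F, where the control medians are 1145, 413 and 548, and closer to it in the chromosome 4 cluster, where knockdown medians are 23.4 to 26.0.

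RNA-seq had 2 control libraries, and they differed. Over 21186 bins of the chromosome arms with a mean signal of at least 5, control 2 spread around control 1 with an SD of 0.777 on the log2 scale, whereas the knockdown libraries spread around control 1 with 0.332 to 0.449. In 38C2 the median RNA-seq signal was 0.880 and 1.04 in the controls and 0.0895, 0.109 and 0.0518 after rhino, deadlock and cutoff knockdown. In 38C1 it was 0.790 and 0.639 in the controls and 0.118, 0.010 and 0.0897 in the knockdowns. In 80F it was 1.26 and 1.42 in the controls and 0.109, 0.0936 and 0.160. All 3 knockdowns lay below both controls in these 3 stretches. In the chromosome 4 cluster it was 0.364 and 0.264 in the controls and 0.841, 1.12 and 0.652, all above both controls. At an index of at least 0.5 the sign in the chromosome 4 cluster was the opposite, with median log2 differences of -0.05, -0.12 and -0.04 in place of 0.29, 0.47 and 0.16. That set held 16 of the 20 kept bins nearest its start and 4 of the 34 beyond them, so it says little of the latter. The control medians were 0.962 ± 0.116 in 38C2, 0.715 ± 0.106 in 38C1, 1.34 ± 0.108 in 80F and 0.314 ± 0.0704 in the chromosome 4 cluster (SD, n = 2).

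Per bin, RNA-seq was at least 2-fold lower than the control mean in 25, 27 and 23 of 147 bins after rhino, deadlock and cutoff knockdown (1.23%, 2.29% and 1.43% of the genome), and higher in 19, 21 and 10 (0.756%, 0.905% and 0.511%). The lower shares of 17.0%, 18.4% and 15.6% were 46.3%, 53.7% and 50.3% with a pseudocount of 0.1 and 6.12%, 6.12% and 4.08% with a pseudocount of 2. The genome shares are for a pseudocount of 1 only. With a pseudocount of 0.1 the median log2 change was -0.782, -1.095 and -1.074 in the 147 bins. Over all kept bins of the genome it was -0.084, -0.132 and -0.154. None of the lower bins was in the chromosome 4 cluster, which held 16, 18 and 9 of the higher ones. A limma fit over all kept bins called no bin at an adjusted p under 0.05, in these stretches or in the genome (0% called). At an unadjusted p under 0.05, limma had 14 bins lower and 5 higher in rhino knockdown, where the genome shares were 1.05% and 4.37%, so that the 5 higher bins (3.40%) were a smaller share than in the genome. It had 18 and 11 in deadlock knockdown (genome shares 1.44% and 5.03%) and 16 and 6 in cutoff knockdown (1.19% and 3.203%). The fit had 1 residual degree of freedom, from the 2 controls. Over all kept bins it did not recover changes put into simulated data. A limit to bins with a mean signal of at least 0.2 was added after the data were seen. With it, the fit recovered most of the larger changes put into simulated data. The simulated spread was a fixed value and not the spread of the 2 controls. This recovery therefore does not show what the fit could find in the data.

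A single bin set the mean RNA-seq level of 38C1. It is the bin from 20161001 to 20162000, with a mappability index of 0.021, and its RNA-seq signal was 16.8 and 5.26 in the controls and 144, 364 and 115 after rhino, deadlock and cutoff knockdown. With it, the mean over 38C1 was 1.51 and 1.22 in the controls and 4.08, 9.52 and 3.16 in the knockdowns. Without it, the means were 1.11 and 1.12 in the controls and 0.390, 0.204 and 0.226. The direction of the mean therefore turned on this bin, while the median did not. Its GRO-seq signal was at the offset of 0.1 in both libraries.

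Pol II and nascent RNA in rhino knockdown had no common direction over the 4 stretches. Pol II was at least 2-fold lower in 14 bins (0.905% of the genome) and higher in 15 (1.29%). GRO-seq was lower in 42 bins (3.88%) and higher in 31 (4.37%). In 80F, 11 bins were lower in Pol II and none higher, and 18 were lower in GRO-seq and 3 higher. In the chromosome 4 cluster, no bin was lower in Pol II and 14 were higher, and 6 were lower in GRO-seq and 24 higher. Summed reads in rhino knockdown relative to control were 0.787 for Pol II (0.744 to 0.834) and 0.651 for GRO-seq (0.591 to 0.717) in 80F. In the chromosome 4 cluster they were 1.83 (1.79 to 1.88) and 2.31 (2.157 to 2.48). The RNA-seq medians over all kept bins had the same signs, lower in 80F and higher in the chromosome 4 cluster.

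**Figure D3:**
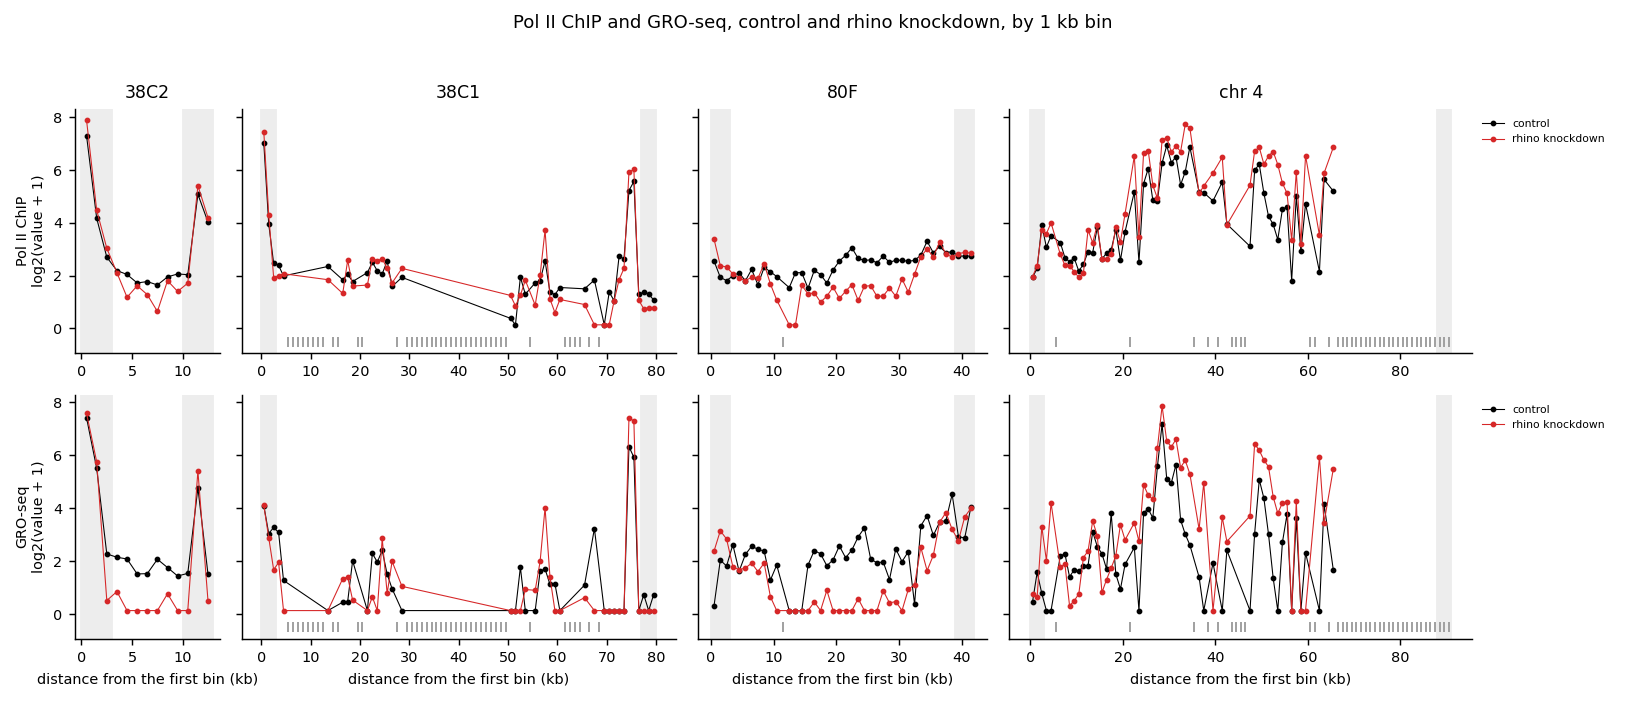
Pol II ChIP (top) and GRO-seq (bottom) as log2(value + 1) against the distance from the first bin in kb, in control (black) and rhino knockdown (red). Grey bands are edge bins and grey ticks bins that were not kept, which the lines bridge. The knockdown line lies below control inside 80F, where the Pol II read ratio over all kept bins is 0.787, and above it in the distal bins of the chromosome 4 cluster.

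In 38C, high Pol II was measured in a few bins. Pol II at 2-fold over input or more was found in 6 of the 147 bins, 4.08%, below the share of 7.68% in the genome. Once libraries were rescaled to equal medians over the chromosome arms, the shares were 61.2% of the 147 and 30.9% of the genome. Of the 6 bins, 5 were in 38C: the first and the next-to-last bin of 38C2, and the first bin and bins 75 and 76 of 80 in 38C1. The last 2 count as inner bins, and the edge bins of 38C1 had a lower median log2 of Pol II over input (-1.40) than its inner bins (-0.94). These 5 bins were singled out after their values were seen. Their median Pol II signal was 46.6, against 2.83 in the other 47 bins of 38C, and their median GRO-seq signal was 59.7 against 1.42. The first bin of 38C2, which overlaps an exon, had the highest Pol II signal, 157 in control and 237 in rhino knockdown, and GRO-seq of 170 and 191. Bin 75 of 38C1 had GRO-seq of 79.4 in control and 169 in rhino knockdown, and bin 76 had 59.7 and 157.

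In these 5 bins, read ratios in rhino knockdown were 1.43 for Pol II (1.38 to 1.47) and 1.56 for GRO-seq (1.47 to 1.65). In the other 47 bins of 38C they were 1.05 (0.989 to 1.12) and 0.920 (0.813 to 1.04). Rhino in piwi knockdown was higher in all 5, with a median log2 difference of 2.38, against 0.30 in the other 47. In the first bin of 38C2 Rhino signal was 67.9 in control and 387 in piwi knockdown, and in the first bin of 38C1 it was 50.3 and 266. Small RNA was nonetheless low in knockdowns at the same bins, with summed reads 101 times lower in rhino knockdown (83.6 to 122). Pol II control values chose these bins, so the Pol II level over input is a description, and the Pol II ratio shares that library.

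Between the 2 ends of 38C2, nascent RNA was lower in rhino knockdown. The 7 inner bins held 51 GRO-seq reads in control and 5 in rhino knockdown, a ratio of 0.104 (0.0324 to 0.259), and Pol II was at 0.688 (0.543 to 0.868). The 6 edge bins held 1671 and 1817 GRO-seq reads, a ratio of 1.15 (1.08 to 1.23). Since the edges held most of the reads, the ratio over the whole of 38C2 was 1.12 (1.05 to 1.20), although 9 of its 13 bins were at least 2-fold lower on the log scale. In 38C1 the inner bins held 1546 GRO-seq reads in rhino knockdown and 739 in control, but without the 3 bins of high Pol II its other 36 bins held 158 and 178, a ratio of 0.942 (0.756 to 1.17).

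The higher Rhino signal of 38C2 in piwi knockdown was also measured past one of its ends. In the 5 bins that follow 38C2, from 20117001 to 20122000, the median log2 difference was 1.75, whereas in the 5 bins before it, from 20099001 to 20104000, it was -0.79. In the 5 bins before 38C1, from 20143001 to 20148000, it was -1.40. The last 4 bins of 38C1, all with an index of 1, had a median Rhino signal of 11.3 over an input of 8.10, and a log2 over input of 0.55, and the last Rhino-bound bin of 38C1 was bin 75.

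In 80F, Rhino at 4-fold over input or more was found in the interior and not at the ends. All 28 bound bins lay between bins 5 and 35 of 42, and no edge bin was bound. At 2-fold over input or more were 39 of its 41 kept bins, beside 166 of 166 in 42AB and 66 of 89 in the somatic cluster flamenco. The genome share at 2-fold is not given here, so this count does not set 80F apart. The authors' mark for major clusters was on 31 of 36 inner bins of 80F and on 0 of 6 edge bins. It was on 13 of 13 bins of 38C2, 77 of 80 of 38C1 and 0 of 91 of the chromosome 4 cluster. The edge bins had a median log2 of Rhino over input of 1.18 and the inner bins of 3.72. H3K9me3 was almost as high at the edges, with 2.74 against 2.95. The median Rhino signal was 195 in the 28 bound bins and 19.5 in the 13 others, a contrast that the choice of bins by control Rhino over input sets. Their median mappability indices were 0.633 and 0.983.

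The bound bins of 80F held fewer nascent RNA and Pol II reads in rhino knockdown. GRO-seq reads of the 28 bound bins went from 444 in control to 92 in rhino knockdown, a ratio of 0.220 (0.174 to 0.276). Their Pol II ratio was 0.4995 (0.456 to 0.547). In the 13 other bins the ratios were 0.946 (0.844 to 1.06) for GRO-seq and 1.13 (1.05 to 1.22) for Pol II. That GRO-seq ratio, from 650 reads in control and 579 in rhino knockdown, summed unlike changes. The first 3 bins of 80F, which are among the 13, went from 39 reads to 117, and the rest fell in sum. The 7 exon bins of 80F, bound or not, had a GRO-seq ratio of 0.521 (0.431 to 0.629). The highest Rhino over input was in bin 22, where Rhino signal was 460 in control and 25.9 in rhino knockdown and Pol II was 5.83 and 1.66.

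Along the 41 kept bins of 80F, Rhino over input ran against the Pol II change (Spearman rho -0.85) and the GRO-seq change (-0.66), and with Deadlock (0.84) and Cutoff (0.74) in control over their own knockdown. These correlations are over neighbouring bins that share libraries, mappability and sequence, and carry no test. The sign for Pol II in the chromosome 4 cluster was the opposite one, 0.64 over 54 bins, in 38C1 it was near 0 (-0.11 over 39 bins), and in 38C2 it was that of 80F (-0.38 for Pol II and -0.52 for GRO-seq over 13 bins).

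RNA-seq in the bound bins of 80F had medians of 1.25 and 1.37 in the controls and 0.0516, 0.0527 and 0.0990 after rhino, deadlock and cutoff knockdown. The exon bin 40 of 80F, outside the bound bins, had 113 and 73.2 in the controls and 93.3, 104 and 113 in the knockdowns, so the knockdowns lay between the controls or level with the higher one. The first 3 bins of 80F had a GRO-seq ratio of 3.18 in rhino knockdown (2.199 to 4.70, from 39 reads in control and 117 in knockdown) and a Pol II ratio of 1.75 (1.47 to 2.08). The last 3 bins had 1.13 (0.927 to 1.38) and 1.10 (0.948 to 1.28). In the first bin, RNA-seq was 0.619 and 2.04 in the controls and 3.81, 9.49 and 1.44 in the knockdowns.

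The chromosome 4 cluster fell into 2 unlike stretches. Its proximal 20 kept bins, in positions 1 to 21, carry a mark of the authors' window selection in the deposited table. The distal 34 kept bins, in positions 23 to 66, do not. The proximal bins had a median mappability index of 0.895 and input of 6.95, and the distal ones an index of 0.1595 and input of 39.8. Beyond position 66 no bin was kept.

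**Figure D4:**
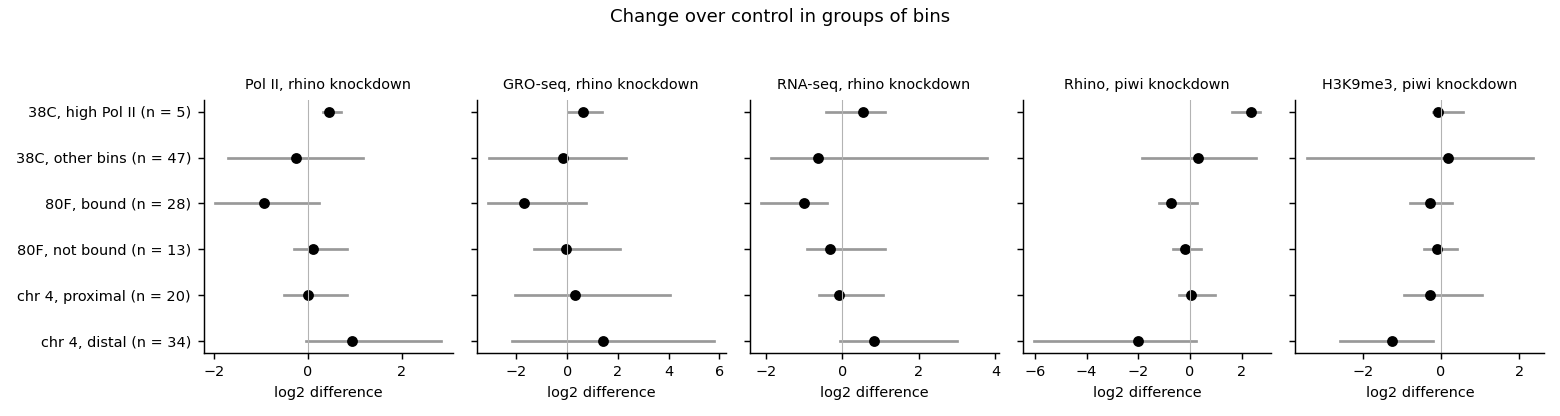
Median (dot) and range (line) over bins of the log2 difference to control in 6 groups of kept bins, for Pol II, GRO-seq and RNA-seq in rhino knockdown and for Rhino and H3K9me3 in piwi knockdown. The bound bins of 80F lie lowest for GRO-seq, the distal bins of the chromosome 4 cluster lie highest for Pol II and lowest for Rhino in piwi knockdown (-2.02), and the 5 bins of 38C with high Pol II lie highest for Rhino in piwi knockdown (2.38).

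Rhino was high in the distal bins of the chromosome 4 cluster. The median log2 over input was 3.64 in the distal bins and 1.08 in the proximal ones, and the median signal was 537 and 13.8. In piwi knockdown the distal median was 130.2 and the proximal one 16.5, log2 differences by bin of -2.02 and 0.05. H3K9me3 in piwi knockdown differed likewise, by -1.26 in the distal and -0.28 in the proximal bins.

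In rhino knockdown the distal bins of the chromosome 4 cluster held more Pol II and nascent RNA. Pol II reads went from 8288 to 13664, a ratio of 2.06 (2.01 to 2.12), and GRO-seq reads from 860 to 2289, a ratio of 2.83 (2.61 to 3.06). The proximal bins had ratios of 1.02 (0.963 to 1.09) and 1.00 (0.857 to 1.17). RNA-seq in the distal bins had medians of 0.364 and 0.394 in the controls and 1.498, 2.12 and 1.01 after rhino, deadlock and cutoff knockdown, and in the proximal bins 0.360 and 0.176 in the controls and 0.195, 0.209 and 0.213. Small RNA was lower in both, in rhino knockdown 7.84 times in the distal (7.67 to 8.03) and 7.60 times in the proximal bins (6.57 to 8.83). In deadlock knockdown the factors were 3.56 (3.5003 to 3.62) and 8.28 (7.07 to 9.74), and in cutoff knockdown 6.25 (6.14 to 6.37) and 7.35 (6.46 to 8.39).

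High input moved with the distal bins: 26 of the 34 distal bins had an input of at least 2 times the genome median, up to 158. In these 26, the Pol II ratio was 1.84 (1.79 to 1.89) and the GRO-seq ratio 2.67 (2.47 to 2.90). In the other 8 distal bins the ratios were 6.13 (5.52 to 6.81) and 15.7 (8.31 to 33.4), the last from 10 reads in control and 148 in knockdown. The Rhino difference in piwi knockdown was -2.09 in the 26 bins and -1.98 in the 8. These 8 bins had a median mappability index of 0.0625 and inputs of up to 17.35. How many copies of this sequence the flies carry, and whether the groups differ in it, was not tested. The labels name no input of a knockdown.

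Single bins of the chromosome 4 cluster departed from its median. At bin 63, with an index of 0.025, small RNA was 143 in control and 664, 1863 and 965 after rhino, deadlock and cutoff knockdown, so higher in each. The bin of highest control small RNA, bin 33, had 5410 in control and 199, 179 and 252. Its Rhino signal was 2384 in control, 169.6 in rhino knockdown and 272 in piwi knockdown. Bin 64 had the highest Rhino over input, with 2688 in control and 277 in piwi knockdown. Bin 5 had the highest H3K9me3 over input of the chromosome 4 cluster, with 122 in control and 62.6 in piwi knockdown, but a Rhino signal of 26.1.

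**Figure D5:**
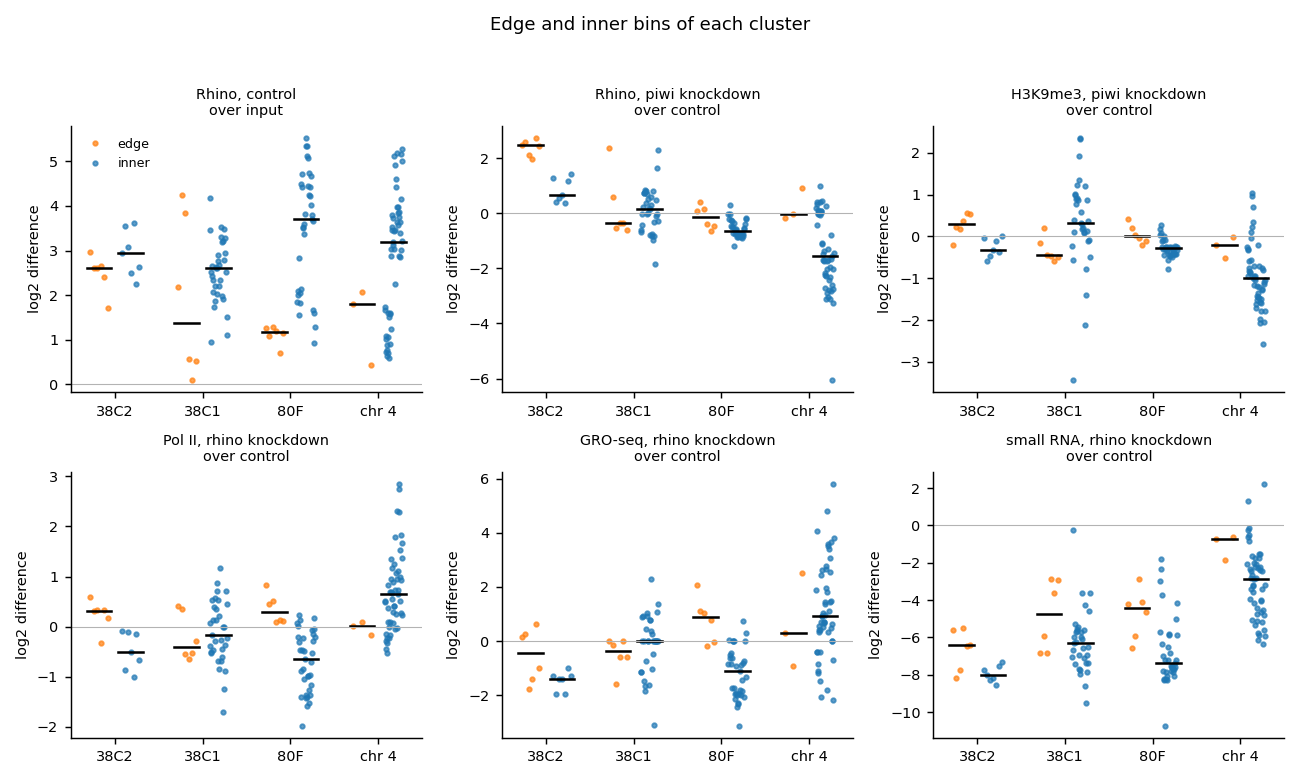
Log2 differences in each edge bin (orange) and inner bin (blue) of the 4 stretches, with medians as black bars, for Rhino in control over input, Rhino and H3K9me3 in piwi knockdown over control, and Pol II, GRO-seq and small RNA in rhino knockdown over control. Rhino over input at the edges is lower than inside in 80F (1.18 and 3.72). Rhino in piwi knockdown is higher at the edges than inside in 38C2 (2.47 and 0.65) and lower in 38C1 (-0.36 and 0.15).

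Set side by side, edge and inner medians differed in the same direction in all 4 stretches for control Rhino over input and for small RNA. They did not for Pol II, GRO-seq or Rhino in piwi knockdown. Rhino in piwi knockdown over control was higher at the edges in 38C2, 80F and the chromosome 4 cluster, and lower in 38C1 (-0.36 and 0.15). The size of the difference varied, and the 2 ends of a stretch were not always alike. In 38C1, 3 of the 6 edge bins carried the authors' mark for major clusters. Rhino over input was lower at the edges in all 4, with medians of 2.61 at the edges and 2.94 inside in 38C2, 1.37 and 2.60 in 38C1, 1.18 and 3.72 in 80F, and 1.80 and 3.19 in the chromosome 4 cluster. The 3 edge bins measured in the chromosome 4 cluster were all proximal, and its inner bins were 17 proximal and 34 distal. The edge median of 1.80 was above that of the proximal bins as a whole. In this cluster edge against inner therefore cannot be told apart from proximal against distal. The Pol II difference in rhino knockdown was 0.32 at the edges and -0.50 inside in 38C2 and 0.29 and -0.65 in 80F. In the chromosome 4 cluster it was 0.02 at the 3 measured edge bins and 0.64 inside, and in 38C1 it was -0.40 and -0.17. For GRO-seq the pairs were -0.42 and -1.38 in 38C2, -0.38 and 0.00 in 38C1, 0.91 and -1.09 in 80F, and 0.30 and 0.92 in the chromosome 4 cluster. Small RNA in rhino knockdown was lower inside than at the edges in each, by medians of -8.01 and -6.42 in 38C2, -6.31 and -4.76 in 38C1, -7.35 and -4.41 in 80F, and -2.86 and -0.72 in the chromosome 4 cluster. A bin with little small RNA in control can fall only a little. Control reads were 3041 in the first 3 bins of 80F and 449 in its last 3, of 81070. In 38C1 they were 12708 in the first 3 bins and 199 in the last 4, of 41724. The part of control level in this difference was not tested.

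The mappability index moved with the contrast of edge and inner bins. Its median over kept bins was 0.943 at the edges and 0.423 inside in 38C2, 0.861 and 0.394 in 38C1, 0.984 and 0.706 in 80F, and 0.972 and 0.318 in the chromosome 4 cluster. Its part in the edge differences was not tested. With at most 6 edge bins to a stretch and 1 value per group, these are descriptions of bins and not of replicated samples.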

How the data were processed

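The authors deposited one table of 1 kb bins on dm3 with decimal commas. Its columns hold a normalised signal, found from the values to be scaled reads over the mappability index, with 0.1 added (RNA-seq 0.01). Whole reads, within 0.1 read in bins of up to 500 reads, were recovered in 100% of values for 21 columns of 1 library. The other 6 are the authors' averages of 2 libraries. Processing used SAMtools 0.1.16, bedtools 2.16.1, GSNAP, cutadapt 1.0 and Bowtie 0.12.7, per the submitters' processing notes; strands are not separated in the table. Of 36 libraries in the labels, 33 were used; capped RNA and H3K4me2 were not analysed here, and 1 further column of per-sample values was not used.

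Bins with input of at least 25% of the median were kept, and changes are differences of log2(value + 1), called at 2-fold (Rhino bound at 4-fold over input). Read ratios carry Clopper-Pearson 95% intervals. RNA-seq was fitted on log2(value + 1) with limma 3.58.1 in R 4.3.3 over all 123742 kept bins (2 control libraries and 1 of each knockdown), with Benjamini-Hochberg adjustment and tested on simulated data; other steps used Python 3.11.15, pandas 2.3.3 and scipy 1.17.1. Labels do not say whether the 2 control libraries came from separate flies, so p-values measure only the spread between these libraries.

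The chromosome 4 cluster is the one at cytological position 102F. Named bins are the first and last of a stretch and those of highest control value per assay; others are said to be chosen after their values were seen. The 34 distal and 28 bound bins and the 5 bins of high Pol II in 38C were also grouped after values were seen. Members and lists were chosen with earlier results of these data known. Alternatives varied the pseudocount, the input filter, the mappability minimum, the fold threshold and the scaling, and left out each RNA-seq control.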

Additional observations from a re-analysis of the deposited data

How the results depend on the processing

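No paired analysis was possible because libraries that share a replicate number are deposited only as averages, and RNA-seq has numbered libraries in the control alone. Among summary shares and counts under alternatives, 141 stayed close to the reported value and 51 moved; among values for single stretches, 616 stayed close and 64 moved. Of 568 medians of single stretches, 18 had another sign than reported, 12 of them with a reported size under 0.2. The others were Pol II over input in 38C2, 38C1 and 80F under rescaling (0.87, 0.81 and 0.93) and RNA-seq in the chromosome 4 cluster, at an index of at least 0.5 (-0.05 and -0.12 in rhino and deadlock knockdown) and, in deadlock knockdown, without bins of high input (-0.08). With no input filter the share of bins was 49.1% for Rhino bound, 61.1%, 60.6% and 50.9% for Rhino lower in rhino, deadlock and cutoff knockdown, 24.3% for Deadlock, 16.4% for Cutoff, 64.6% for H3K9me3 over input, 14.2% for H3K9me3 lower in piwi knockdown, 18.6% for GRO-seq lower, 65.9%, 65.5% and 65.0% for small RNA lower and 11.1% for RNA-seq lower in rhino knockdown. These shares include bins that hold only the offset. For the shares in this paragraph and the next, a genome share under the same setting is given only for Pol II over input after rescaling. Whether the other shares moved more than those of all bins was not tested. At a mappability index of at least 0.5 they were 54.3% for Rhino bound, 59.3% for Rhino lower in cutoff knockdown, and 4.94% for both Rhino and H3K9me3 lower in piwi knockdown. Without bins of high input, chosen after seeing the data, the last 2 were 7.44% and 8.26%. An index of at least 0.5 kept 4 of the 34 distal bins of the chromosome 4 cluster and 16 of its 20 proximal ones. Rhino bound was 90.5% at 2-fold and 44.9% at 8-fold, where flamenco had 74.2% at 2-fold.

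At a 3-fold threshold the shares were 70.7%, 72.1% and 62.6% for Rhino lower in rhino, deadlock and cutoff knockdown, 18.4% for Deadlock, 11.6% for Cutoff, 79.6% for H3K9me3 over input, 1.36% and 7.48% for H3K9me3 lower in rhino and piwi knockdown, 2.04% for Pol II lower, 17.7% for GRO-seq lower, and 4.76%, 4.76% and 4.08% for RNA-seq lower. A pseudocount of 0.1 gave 16.3% for Pol II lower and 46.3%, 53.7% and 50.3% for RNA-seq lower, and a pseudocount of 2 gave 20.4% for GRO-seq lower and 6.12%, 6.12% and 4.08% for RNA-seq lower. Rescaling to equal arm medians gave 99.3% for H3K9me3 and 61.2% for Pol II over input, and 81.6% and 80.3% for small RNA lower in rhino and deadlock knockdown. It moved H3K9me3 by 0.76 to 0.95 and Pol II by 2.04 to 2.10 on the log2 scale, against input at 0.

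After this rescaling the limma fit called 24 bins of these stretches in rhino knockdown (16 lower, 8 higher), 41 in deadlock knockdown (21 and 20), 20 in cutoff knockdown (14 and 6) and 63 in the mean of the 3 (41 and 22), against 0.935%, 1.60%, 0.806% and 2.19% of the genome. There, arm medians of RNA-seq before rescaling were between 0.0689 and 0.148 and control 2 moved from 0.10 to -0.70 against control 1. After the planned fit called none, 3 minimum mean signals were tried: 0.2 (123 bins of these stretches), 1 (43 bins) and 2 (21 bins). Of these bins, 40, 23 and 13 were in the chromosome 4 cluster. The median log2 change in the mean of the 3 knockdowns was -0.51, 0.64 and 1.16. Over all bins of the genome above the same minimums it was -0.15, -0.12 and -0.11. Each knockdown had 1 library, so calls under these minimums are not given. Leaving out either RNA-seq control, a value with no test, gave medians from -0.93 to -0.66 in 38C2, and no median of the 4 stretches changed sign. The cause of these shifts was not tested. GRO-seq depth is limiting in inner 38C2, which held 5 and 51 reads.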
